A study of Mus musculus with 4 samples.

Results

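The cells described here are CD8 T cells that carried RNA of Tcf7 and none of Ccl3 or Gzmk, in single-cell RNA sequencing of mouse tumours. They were chosen from the measured counts of unique molecular identifiers (UMIs, one for each captured RNA molecule). A kept barcode held at least 300 genes and 500 UMIs, with at most 20% mitochondrial UMIs. A kept barcode was a member when 5 conditions held: Krt14, Sox9, Hmga2, Tnnt2, Tubb3, Crabp2 and Ankrd1 together, genes of the tumour cells, had under 20 UMIs per 10000; Cd8a with Cd8b1, and Cd3d with Cd3e and Cd3g, each had at least 1 UMI, with none of Cd4 or Foxp3; Mki67, Top2a, Nusap1, Pclaf and Hist1h1b together had under 3 UMIs; Tcf7 had at least 1 UMI; and Ccl3 and Gzmk had none. This found 294 of 42710 kept barcodes, out of 43494 barcodes in all. The CD8 gate, which is the same rule without its conditions on cycling genes, Tcf7, Ccl3 and Gzmk, held 2625 cells. The working name for the members was naive-like CD8 T cells, and their RNA only partly bore that name out, so they are called Tcf7+ CD8 T cells below.

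Tumours grew under the skin of the left flank in C57BL/6J mice injected at 8 weeks of age with MC38 cells, a mouse colon carcinoma line. The KO group had 2 tumours from MC38 cells with Hnrnpa2b1 knocked out, and the WT group had 2 tumours from MC38 cells without that change. The protein made from Hnrnpa2b1 binds RNA in the nucleus. The edit was in the injected cells, whereas T cells come from the host mouse, which no label describes as edited in either group. Tumours were digested with enzymes and strained, and no sorting step is stated.

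Tcf7 encodes TCF-1, a transcription factor of the Wnt pathway that T cells keep while they are naive, in central memory, or in the self-renewing state of chronically stimulated cells. It is lowered as cells become cytotoxic effectors. Naive and central memory T cells also display the chemokine receptor CCR7, with which they enter lymph nodes, and S1PR1, with which they leave tissue for lymph and blood. Effector CD8 T cells make granzymes, perforin and interferon gamma, and after long stimulation they carry inhibitory receptors such as PD-1 (Pdcd1), TIM-3 (Havcr2) and LAG-3 (Lag3).

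The libraries held 114136609 and 132490304 UMIs in KO tumours 1 and 2 and 153162562 and 123655955 UMIs in WT tumours 1 and 2. The members numbered 140 and 113 in KO tumours 1 and 2, against 17 and 24 in WT tumours 1 and 2. Their median depth was 4143 and 2916 UMIs in the KO tumours and 2267 and 2368 UMIs in the WT tumours. A single barcode of WT tumour 2 had 56566 UMIs, 46.9% of all member UMIs of that tumour. It had a high doublet score, and 17.9 tumour-gene UMIs per 10000, close under the limit of 20. Sums over the members are therefore given with all barcodes and, where it matters, without barcodes over 10000 UMIs, of which KO tumours 1 and 2 held 6 and 2, and WT tumours 1 and 2 held 0 and 1. High doublet scores were found for 7 and 8 members of the KO tumours and 0 and 2 of the WT tumours. Pairs of libraries shared 23 to 43 barcode sequences, and no barcode was a member in both libraries of a pair. Hnrnpa2b1 in the members was at 542 and 508 CPM (UMIs per 1000000 UMIs) in KO tumours and 529.98 and 497 CPM in WT tumours, while tumour-gene barcodes had 377 and 311 CPM in KO tumours and 585 and 598 CPM in WT tumours.

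**Figure D1:**
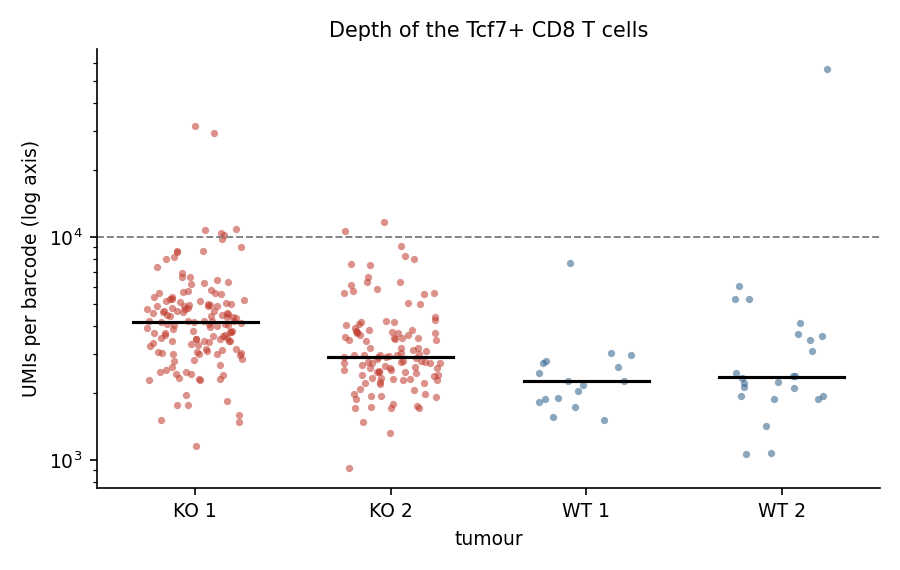
UMIs per barcode of the Tcf7+ CD8 T cells (log axis), 1 point per barcode, in KO tumours 1 and 2 and WT tumours 1 and 2; black lines are medians and the dashed line is 10000 UMIs. One barcode of WT tumour 2 stands at 56566 UMIs, and the WT tumours hold 17 and 24 barcodes.

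RNA of other cells was present in the sums. The 10 macrophage and monocyte genes summed to 1909 and 2407 CPM in KO members and 438 and 3241 CPM in WT members. Of the 391 such UMIs in WT tumour 2, 346 came from 1 barcode of 6047 UMIs. With the barcode richest in these genes left out of each tumour, an alternative chosen after seeing the data, the sums were 1618 and 1839 CPM in KO members and 340.4 and 393 CPM in WT members. The 7 tumour genes of the rule summed to 135 and 155 CPM in KO members and 576 and 978 CPM in WT members, and without barcodes over 10000 UMIs to 90.2 and 151 CPM in KO members and 576 and 265 CPM in WT members. The 8 fibroblast and mural genes summed to 3247 and 203 CPM in KO members and 645 and 265 CPM in WT members. Of the 2170 such UMIs in KO tumour 1, 1873 came from 1 barcode of 29318 UMIs, and without barcodes over 10000 UMIs the sums were 490.1 and 209.9 CPM in KO members and 645 and 172 CPM in WT members. The 5 B and plasma cell genes reached at most 9 CPM and the 7 dendritic cell genes at most 25 CPM.

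Most members were close to the limits of the rule. Of the KO members, 79 of 140 and 69 of 113 had a single Tcf7 UMI, and of the WT members 11 of 17 and 19 of 24. Just outside, 39 and 22 cells of the KO tumours and 3 and 3 cells of the WT tumours had Tcf7 but were left out by 1 UMI of Ccl3 or Gzmk in all.

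The members did not have the RNA of resting naive T cells alone. Nkg7 and Ccl5, a cytotoxic granule gene and a chemokine gene of effector and memory cells, were each found in most of them. Nkg7 had a UMI in 88.6% and 90.3% of KO members and in 64.7% and 79.2% of WT members, against 10.4% and 7.2% of C1q or Lyz2 barcodes (macrophage-like by those genes) in KO tumours and 2.2% and 1.0% in WT tumours. The C1q or Lyz2 barcodes were the deeper ones, with median depths of 7484 and 6408 UMIs in KO tumours and 6131 and 3539 UMIs in WT tumours. At least 1 UMI of Nkg7 or Ccl5 was present in 96.4% and 100% of KO members and 94.1% and 95.8% of WT members. Ccr7 was found in 30.7% and 32.7% of KO members and 29.4% and 8.3% of WT members. Il7r, the receptor of the survival cytokine interleukin 7, was found in 82.1% and 75.2% of KO members and 58.8% and 75.0% of WT members. Between 28.1% and 59.2% of C1q or Lyz2 barcodes of a tumour also had Il7r. Pooled over tumours it was at 241 CPM in those barcodes, 6.17 CPM in tumour-gene barcodes and 786 CPM in members. How much of the Il7r RNA in members came from other cells was not tested. With every barcode thinned to 1000 UMIs, Nkg7 was still found in 55.7% and 71.4% of KO members and 47.1% and 54.2% of WT members, and in at most 2.4% of C1q or Lyz2 barcodes in any tumour.

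With all barcodes summed, the 3 genes given with Tcf7 as markers did not set the members apart from the other non-cycling CD8 T cells. They are given without a test. Bcl2, a survival gene, was at 249 and 273 CPM in KO members and 157 and 284 CPM in WT members, against 139 and 194 CPM in other CD8 T cells of KO tumours and 276 and 348 CPM in those of WT tumours. In these sums Bcl2 was higher in members in the KO tumours and lower in the WT tumours. WT members had 7 and 29 Bcl2 UMIs, and 7 and 27 without barcodes over 10000 UMIs. Without those barcodes, the comparison of KO and WT members had 312 and 302 CPM of Bcl2 in KO members and 170 and 540 CPM in WT members. The value in WT tumour 2 thus depends on its deep barcode. Gimap4, a GTPase gene of lymphocytes, differed by -0.04 on the log2 scale and Ccdc88c, a Dishevelled-binding protein gene, by -0.19.

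Tcf7+ CD8 T cells made up a larger share of the KO tumours' barcodes than of the WT tumours'. They were 1.495% and 1.19% of kept barcodes in KO tumours 1 and 2, against 0.135% and 0.214% in WT tumours 1 and 2. The exact 95% intervals (Clopper-Pearson, counting error only) ran from 1.26% to 1.76% and from 0.981% to 1.43% in KO tumours, and from 0.0784% to 0.215% and from 0.137% to 0.318% in WT tumours. The groups did not overlap, with 1.34% ± 0.216 in KO tumours and 0.174% ± 0.0561 in WT tumours (SD, n = 2 each). The log2 ratio was 2.95 ± 1.00 (SE), a 7.70-fold higher share, with an adjusted p of 0.0103 in edgeR's quasi-likelihood test over 10 classes of barcodes. The exact two-sided permutation test gave p = 0.333, the smallest it can give for 2 against 2 tumours. Leaving out any 1 tumour kept the direction, at log2 ratios of 2.64 to 3.31, and lost the call, with adjusted p-values of 0.0602 to 0.257.

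The other classes of CD8 T cells were higher in the KO tumours as well, so that the members' part of the CD8 gate hardly differed. Tcf7+ cells were 11.6% and 10.6% of the CD8 gate in KO tumours, against 10.2% and 13.0% in WT tumours. The WT values lie on both sides of the KO values. The log2 ratio was -0.07 ± 0.47 (SE), with an adjusted p of 0.880 over 5 classes, and the exact permutation test gave p = 1. Thinned to 1000 UMIs per barcode, the shares were 5.67% and 3.66% in KO tumours and 5.62% and 4.72% in WT tumours. With at least 2 Tcf7 UMIs required, they were 5.04% and 4.14% in KO tumours and 3.61% and 2.72% in WT tumours, a log2 ratio of 0.54 with an adjusted p of 0.404. The difference thus changes sign with the Tcf7 minimum and passes the test in neither case. Shares count barcodes, and a larger share of one class lowers those of the others.

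**Figure D2:**
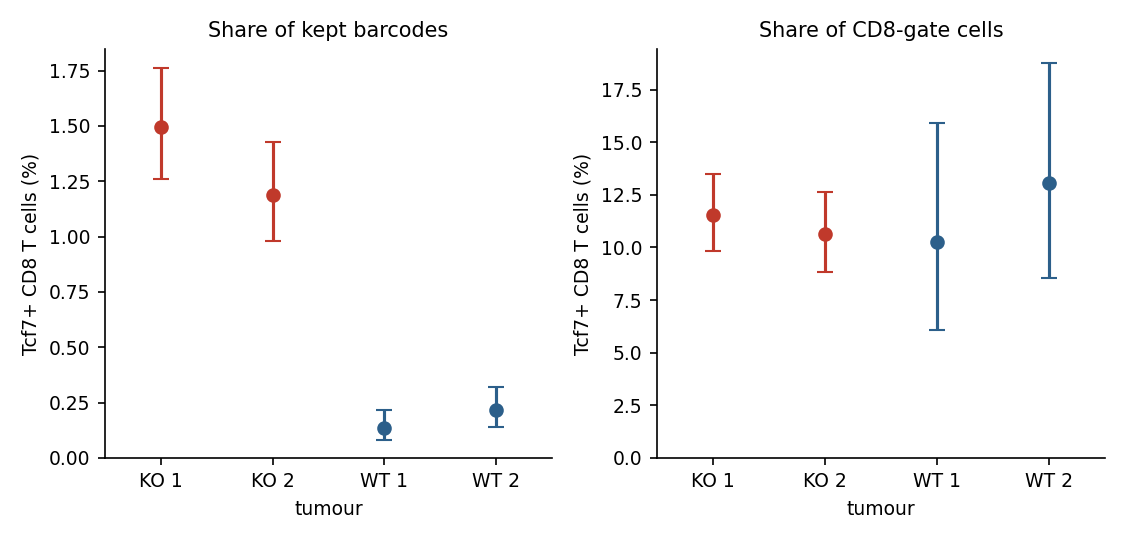
Share of Tcf7+ CD8 T cells per tumour, as a percentage of kept barcodes (left) and of CD8-gate cells (right); points are tumours and bars are exact 95% intervals. The KO tumours, at 1.495% and 1.19% of kept barcodes, lie above the WT tumours, whereas the shares of the CD8 gate overlap between 10.2% and 13.0%.

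Set against the other non-cycling CD8 T cells of the same tumour, the members had more RNA of S1pr1, Myb and Txk and less of Gzmb, Prf1, Ifng, Havcr2, Lag3 and Pdcd1. The comparison cells numbered 813 and 737 in KO tumours and 77 and 125 in WT tumours. Of 5430 genes tested outside the rule, 156 (2.87%) passed an adjusted p of 0.05, 52 (0.958%) higher and 104 (1.92%) lower in Tcf7+ cells. The comparison cells were set apart by Tcf7, Ccl3 and Gzmk UMIs, so genes whose RNA goes along with these within a cell differ through that choice. For this reason the values against cells with none of the 3 transcripts are also given. Those cells are still set apart from members by Tcf7. Their comparison therefore removes the choice by Ccl3 and Gzmk only, and genes that go along with Tcf7 still differ through the rule. That comparison called 65 genes, 63 of them among the 156.

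S1pr1, the egress receptor at chr3:115710433-115715072, was at 137 and 218 CPM in KO members and 112 and 98.1 CPM in WT members, against 65.4 and 39.9 CPM in other CD8 T cells of KO tumours and 46.9 and 46.0 CPM in those of WT tumours. Every member sum was above every sum of the other cells, and the log2 difference was 1.61 ± 0.25 with an adjusted p of 4.47e-04. The sums of WT members held 5 and 10 S1pr1 UMIs. Myb, a transcription factor of self-renewing CD8 T cells, was at 92.6 and 123 CPM in KO members and 112 and 39.2 CPM in WT members. The values in WT members rest on 5 and 4 UMIs. Other CD8 T cells had 41.3 and 65.9 CPM of Myb in KO tumours and 20.8 and 20.1 CPM in WT tumours, and the log2 difference was 1.10 ± 0.22 with an adjusted p of 0.00649.

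Other genes with large differences on the higher side were Cmah (log2 difference 1.37), a sialic acid hydroxylase gene, Sidt1 (1.29), Elmsan1 (1.26), Klf3 (1.26), a Krüppel-like repressor gene, Hmgb1-ps8 (1.21), Gm26740 (1.17), Ifi213 (1.10), Epb41l4aos (1.07), Klhl6 (1.05), Gm2682 (1.05), Tnfrsf12a (1.05) and 1110038B12Rik (1.04). Hmgb1-ps8, a processed pseudogene at chr10:22262742-22263367, lies within Gm26740 at chr10:22187013-22302835 on the same strand. Their values cannot be taken as separate, and reads of Hmgb1 itself may be assigned to the copy. Tnfrsf12a and 1110038B12Rik were most abundant in tumour-gene barcodes, at 334 and 362 CPM, and without barcodes over 10000 UMIs they no longer passed, with adjusted p-values of 0.401 and 0.160.

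Of the 18 naive and central memory genes outside the rule, 15 were tested, of which 6 were higher in members, 0 were lower and 9 did not pass. Their median log2 difference was 0.53, beside -0.0038 over all genes tested. Besides S1pr1, they included Txk, a Tec family kinase gene (0.99, adjusted p 0.00405), Ccr7 (1.01, adjusted p 0.0237), Klf2, the transcription factor that drives S1pr1 (0.89, adjusted p 0.0227), and Il7r (0.74, adjusted p 0.0421). With all barcodes summed, Ccr7 was higher in members of KO tumours only by its values. KO members had 285 and 415 CPM against 90.8 and 212 CPM in other CD8 T cells, while WT members had 224 and 19.6 CPM against 249.98 and 28.7 CPM. Without barcodes over 10000 UMIs, the 2 Ccr7 UMIs of WT tumour 2 made 40.0 CPM in the comparison of KO and WT members. The direction in WT tumour 2 is therefore not firm. Whether KO and WT tumours differ in the class difference of Ccr7 is the question of the interaction test, in which Ccr7 was not among the genes called. That test recovered 8% of simulated 2-fold changes, and WT members had 10 and 2 Ccr7 UMIs. The missing call therefore does not settle the question. Klf2 was also abundant in tumour-gene barcodes, at 792 CPM. Lef1, the partner of TCF-1, had a log2 difference of 0.79 and an adjusted p of 0.0897, and Satb1, a chromatin organiser, one of 0.35 and 0.448. Against the cells with none of the 3 transcripts, Txk and Il7r passed (adjusted p 0.0143 and 0.0467), whereas Ccr7 and Klf2 did not (0.244 and 0.0726).

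Of 8 genes of the stem-like state of chronically stimulated cells, 6 were tested. Myb, Slamf6 (0.91, adjusted p 0.0472), a surface receptor of such cells, and Ikzf2 (1.15, adjusted p 0.00762), which encodes Helios, were higher. Xcl1, a chemokine that draws cross-presenting dendritic cells, was lower (-1.19, adjusted p 0.0297), and without barcodes over 10000 UMIs it did not pass (adjusted p 0.0615). Against cells with none of the 3 transcripts Myb passed (adjusted p 0.0210), and Slamf6 (0.87, adjusted p 0.0982), Ikzf2 (0.91, adjusted p 0.116) and Xcl1 (-0.36, adjusted p 0.716) did not. Of 11 egress and migration genes, 10 were tested and 4 were higher, among them S1pr1, Ccr7 and the integrin gene Itga4 (0.94, adjusted p 0.0245). The 7 Gimap family genes tested had 0 calls and a median of 0.16, in edgeR at this threshold. With barcodes over 10000 UMIs left out, 9 of the 15 naive and central memory genes, 5 of the 10 egress genes and 2 of the 7 Gimap genes passed as higher, where 2.74% of all genes were higher and 4.49% lower.

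Of 22 effector and cytotoxic genes tested, 11 were lower in members and 1, Eomes, was higher, with a median log2 difference of -0.98. Gzmb, which encodes granzyme B and lies at chr14:56258838-56262260, was at 299 and 175 CPM in KO members and 112 and 147 CPM in WT members, against 1508 and 1488 CPM in other CD8 T cells of KO tumours and 651 and 1414 CPM in those of WT tumours. No sums overlapped, and the log2 difference was -2.79 ± 0.21 with an adjusted p of 2.34e-08. Ifng, which encodes interferon gamma, was at 42.5 and 51.9 CPM in KO members and 44.8 and 19.6 CPM in WT members, against 427 and 424 CPM in other CD8 T cells of KO tumours and 562 and 1856 CPM in those of WT tumours. Its log2 difference was -3.73 ± 0.31 with an adjusted p of 1.01e-07. Prf1, the perforin gene, differed by -2.22 ± 0.23 (adjusted p 1.62e-06) and Nkg7 by -1.31 ± 0.17 (adjusted p 3.18e-05).

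Against cells with none of the 3 transcripts, Gzmb still differed by -2.23, Prf1 by -1.78, Ifng by -1.90 and Nkg7 by -1.13, each past the threshold. Ccl4, the chemokine gene next in function to Ccl3, did not hold up in that comparison: it differed by -3.12 from the other CD8 T cells and by -0.44 (adjusted p 0.446) from cells free of Ccl3 and Gzmk. Gzma differed by -1.06 and by -0.45 (adjusted p 0.470), and Ccl5 by -0.71 and by -0.38 (adjusted p 0.517). Gzmf, another granzyme gene, differed by -4.75, and by -3.10 without barcodes over 10000 UMIs (adjusted p 7.51e-08). It was at 19.7 and 32.8 CPM in KO members and at 0 in both WT members' sums, against 203.5 and 1675 CPM in other CD8 T cells of KO tumours and 521 and 57.5 CPM in those of WT tumours. Without those deep barcodes the other CD8 T cells of KO tumour 2 had 217 CPM. A count of 0 allows up to 69.1 CPM in WT tumour 1 and 24.9 CPM in WT tumour 2 (3 counts of the members' total). Granzyme genes of this cluster resemble each other in sequence, so reads may be shared among them.

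Of 7 inhibitory receptor and exhaustion genes tested, 6 were lower in members and 0 higher, with a median of -1.11. They were Havcr2 (-2.56), Lag3 (-2.30), Pdcd1 (-1.67), Entpd1 (-1.11), which encodes the ectonucleotidase CD39, Cd160 (-0.997) and Ctla4 (-0.85). Pdcd1 was at 103 and 112 CPM in KO members and 44.8 and 0 CPM in WT members, against 258 and 255 CPM in other CD8 T cells of KO tumours and 323 and 279 CPM in those of WT tumours. Each tumour had less in its members. Against cells with none of the 3 transcripts Havcr2, Lag3 and Pdcd1 passed, and Entpd1, Cd160 and Ctla4 did not. Of 9 activation and costimulation genes tested, 4 were lower, namely Tnfrsf9 (-2.06), which encodes the costimulatory receptor 4-1BB, Tnfrsf4 (-1.54), Il2ra (-1.42) and Icos (-0.79). Against cells with none of the 3 transcripts Tnfrsf9 and Tnfrsf4 passed, and Il2ra (-1.11, adjusted p 0.0726) and Icos (-0.60, adjusted p 0.220) did not. Cxcr6, a chemokine receptor of resident T cells, was the 1 residency gene of 6 tested that was lower (-1.08, adjusted p 0.00214).

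Other genes named for their size on the lower side were Ccl1 (-3.00), Serpine2 (-2.42), Nrgn (-2.41), Sv2c (-2.38), Rgs16 (-2.36), a regulator of G protein signalling, Gm36723 (-1.99) and Cx3cr1 (-1.97), a chemokine receptor of effector cells. Other groups held fewer calls with all barcodes summed, where 1.92% of all genes tested were lower. In the BCL2 family 2 of 7 tested genes were lower, Bcl2a1b and Bcl2a1d, near-identical copies whose reads may be shared. In glycolysis 2 of 12 were lower (Aldoa and Pgk1), in T cell receptor signalling 1 of 13 (Zap70) and among interferon genes 1 of 16 (Ly6a). There were 0 calls by edgeR among 14 immediate early genes, 10 NF-kappaB genes and 87 ribosomal protein genes. Of the markers of other cells, Il1r2, Col1a2, Ctla4 and Il2ra passed, all lower in members. Without barcodes over 10000 UMIs, 7 of 12 glycolysis genes were lower and 0 higher, with a median of -0.69. Lower in that setting were also 3 of 7 BCL2 family and 3 of 13 receptor signalling genes, beside 4.49% of all genes. Among 10 NF-kappaB genes 2 were then higher, and among 14 immediate early genes 1 was lower.

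The calls rest partly on the KO tumours, which hold most of the cells. The number of genes called was 25 without KO tumour 2 and 56 without KO tumour 1, and 419 without WT tumour 2. Gzmb, Ifng and Prf1 passed in all 4 fits that left out a tumour, S1pr1 in 3, Myb, Txk, Ccr7 and Klf2 in 2, and Il7r and Slamf6 in 1. Without barcodes over 10000 UMIs, 361 genes were called, 140 of them among the 149 of the 156 that were tested there.

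**Figure D3:**
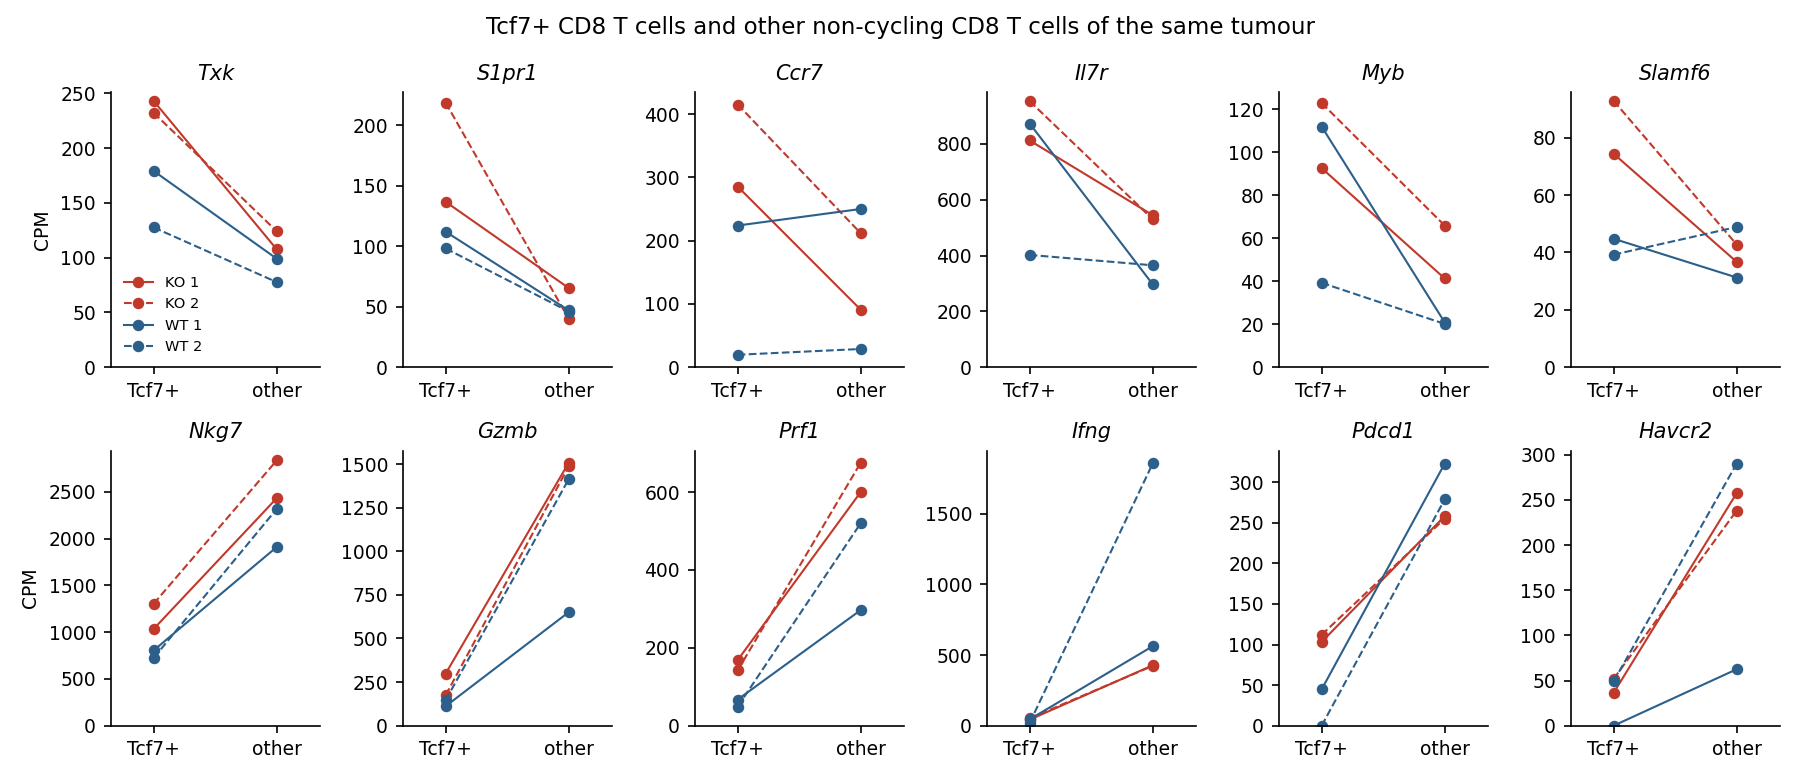
CPM of 12 genes in Tcf7+ CD8 T cells (left of each panel) and in other non-cycling CD8 T cells (right) of the same tumour, 1 line per tumour (red KO, blue WT; solid line tumour 1, dashed line tumour 2). S1pr1 and Txk are higher in Tcf7+ cells of all 4 tumours and Nkg7, Gzmb, Prf1, Ifng, Pdcd1 and Havcr2 lower. With all barcodes summed, as drawn, Ccr7 is higher in Tcf7+ cells of the KO tumours and lower in those of the WT tumours. The WT values of Ccr7 rest on 10 and 2 UMIs, and that of WT tumour 2 depends on its barcode over 10000 UMIs.

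Since the members are defined by the RNA of a transcription factor, the stretches before the starts of the genes higher in them were searched for CTTTGAT, a core form of the sequence that TCF-1 and LEF-1 bind. RefSeq promoters (GRCm38.p6, 250 bases before the start, either strand) were found for 39 of the 52 genes, and 3 of them held it. That is 7.69% of the matched genes, beside 2.30% of 87 matched genes on the lower side, 2.49% of 4291 matched genes tested and 3.72% of the 27025 genes in the table. The 3 are shown because they are the cases in question. Capitals mark the motif, or its reverse complement, and the genes were picked for it after their values were known. A match is a string in this window and no evidence of binding.
Cmah, chr13:24327154-24327403, plus strand: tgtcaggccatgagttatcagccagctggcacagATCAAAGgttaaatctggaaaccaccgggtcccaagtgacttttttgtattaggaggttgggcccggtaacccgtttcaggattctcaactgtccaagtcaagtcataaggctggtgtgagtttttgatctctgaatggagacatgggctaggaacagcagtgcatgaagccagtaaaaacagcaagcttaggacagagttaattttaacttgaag
Emb, chr13:117220323-117220572, plus strand: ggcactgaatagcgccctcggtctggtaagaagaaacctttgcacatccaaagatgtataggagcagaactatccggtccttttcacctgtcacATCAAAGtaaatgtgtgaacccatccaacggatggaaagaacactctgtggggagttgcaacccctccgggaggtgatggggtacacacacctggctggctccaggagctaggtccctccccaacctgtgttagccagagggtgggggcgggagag
Thada, chr17:84466209-84466458, minus strand: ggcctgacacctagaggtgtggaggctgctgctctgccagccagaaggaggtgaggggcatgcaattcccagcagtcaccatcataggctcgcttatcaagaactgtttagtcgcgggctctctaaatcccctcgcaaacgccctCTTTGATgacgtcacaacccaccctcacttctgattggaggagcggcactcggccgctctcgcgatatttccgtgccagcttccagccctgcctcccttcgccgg

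The motif begins 216 bases before the start of Cmah, 156 before that of Emb and 105 before that of Thada. Cmah was at 69.8 and 98.3 CPM in KO members and 67.1 and 88.3 CPM in WT members, against 32.8 and 28.7 CPM in other CD8 T cells of KO tumours and 10.4 and 46.0 CPM in those of WT tumours. Emb, which encodes the adhesion protein embigin, was at 1217 and 1016 CPM in KO members and 425 and 500.1 CPM in WT members, against 642 and 564 CPM in other CD8 T cells of KO tumours and 249.98 and 368 CPM in those of WT tumours. Thada was higher by 1.15 on the log2 scale in members, and in WT tumours its member sums were at 0 and 9.81 CPM. Cmah and Emb were higher in members of all 4 tumours, and Thada of the KO tumours only by its values. In WT tumour 1 the member value of Cmah is close to the 69.1 CPM that 3 counts make there, so its direction rests on few UMIs.

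Between KO and WT tumours the Tcf7+ CD8 T cells differed in Klrc1, Satb1 and other genes when all barcodes were summed, and the calls, these included, depended on which barcodes were summed. Of 4388 genes tested, 186 (4.24%) passed, 91 (2.07%) higher and 95 (2.16%) lower in KO members. Without barcodes over 10000 UMIs, 33 of 3885 genes passed, 23 higher and 10 lower. With high doublet scores removed, 1 gene passed, Rin2, and 337 had an unadjusted p under 0.05. Of the 186 genes, 144 were tested without the deep barcodes and 27 passed both ways, 19 higher and 8 lower. Of these 27, 7 also passed in all 4 fits that left out a tumour.

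Klrc1, which encodes the inhibitory receptor NKG2A and lies at chr6:129666015-129678973, was at 342 and 387 CPM in KO members, against 23.6 and 51.2 CPM in WT members. These are 209 and 135 UMIs in KO members and 1 and 5 UMIs in WT members. The groups did not overlap, and the log2 fold change was 3.09 ± 0.46 (SE) with an adjusted p of 0.00223, or 2.58 with an adjusted p of 0.00582 without deep barcodes. It passed in 4 of 4 fits that left out a tumour, and did not pass with high doublet scores removed (2.44, adjusted p 0.245). In the other non-cycling CD8 T cells the log2 fold change of Klrc1 was 0.42 (adjusted p 0.439), and the interaction test called the difference, at 2.81 ± 0.52 with an adjusted p of 0.0206.

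Satb1, which organises chromatin in T cells, was at 943 and 974 CPM in KO members, against 330.3 and 276 CPM in WT members. No values overlapped, at a log2 fold change of 1.69 ± 0.31 and an adjusted p of 0.00781. Without deep barcodes it was 1.20 with an adjusted p of 0.0400, and in the other CD8 T cells 0.91 with an adjusted p of 0.123. It passed in 2 of 4 fits that left out a tumour, failing without KO tumour 1 and without KO tumour 2 (adjusted p 0.110 in that fit), and did not pass with high doublet scores removed (1.09, adjusted p 0.268). Satb1 was the 1 gene of the 15 tested naive and central memory genes that rose. Ccr7 (log2 fold change 1.99, adjusted p 0.0578) and Lef1 (1.90, adjusted p 0.0578) did not pass, and neither did S1pr1 (0.78, 0.298) or Il7r (0.57, 0.344).

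Other genes higher in KO members both ways included Nr4a3, an orphan nuclear receptor induced by T cell receptor signals, at 277 and 292 CPM in KO members against 47.2 and 40.9 CPM in WT members (log2 fold change 2.71, adjusted p 0.00445). The WT values of Nr4a3 rest on 2 and 4 UMIs. Dennd4a was at 1298 and 1356 CPM in KO members against 472 and 246 CPM in WT members (1.99, adjusted p 0.00445). Kdm2b, a histone demethylase gene, was at 416 and 449.98 CPM in KO members against 94.4 and 92.1 CPM in WT members (2.21, adjusted p 0.00531). WT members had 20 and 24 UMIs of Dennd4a and 4 and 9 of Kdm2b. Itpkb, a kinase gene of inositol phosphates in T cells, Rora, Pim1, Kdm6b, Hif1a and Irf8 also passed both ways. With a tumour left out, Itpkb passed in 4 of 4 fits, as did Nr4a3, Dennd4a and Kdm2b, while Rora, Kdm6b and Irf8 passed in 3 and Pim1 and Hif1a in 1. Of the 19 genes higher both ways, 17 were most abundant in a T cell class of these tumours. The classes were ranked by UMIs pooled over the 4 tumours, and most member UMIs came from KO tumours. That favours the members' class for genes high in KO members, and the share over all genes tested is not given. Thbs1, which encodes thrombospondin 1, was at 255 and 232 CPM in KO members against 0 and 10.2 CPM in WT members, and was most abundant in C1q or Lyz2 barcodes (954 CPM). The part of macrophage RNA in this result was not tested.

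Some genes named for the size of their fold change rested on 0 UMIs in the WT members. Gm47087 had 59 and 36 UMIs in KO members and was at least 4.89-fold higher there, computed against 3 counts over the WT group. Ell2, an elongation factor gene, was at least 3.55-fold higher, Gm36723 at least 3.04-fold and Trafd1 at least 2.88-fold. These bounds use all WT member UMIs, with the barcode of 56566 UMIs in WT tumour 2, and would be lower without it. Il2ra, the interleukin 2 receptor alpha gene, had 57 and 41 UMIs in KO members and 1 and 0 in WT members, and Arg1, the arginase gene most abundant in C1q or Lyz2 barcodes (2578 CPM), had 334 and 143 UMIs in KO members and 2 and 4 in WT members. Ramp3, Nmrk1 and Thada completed the named genes on the higher side. Without deep barcodes Gm47087 and Thbs1 passed, and Il2ra (adjusted p 0.148), Arg1 (0.0564), Ell2 (0.0940), Gm36723 (0.109), Nmrk1 (0.156), Thada (0.107) and Ramp3 (0.0844) did not, while Trafd1 was not tested there.

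The genes lower in KO members were mostly most abundant outside the T cells. Of the 95, 59 were most abundant in tumour-gene barcodes, 33 in the barcodes of no named class, 2 in C1q or Lyz2 barcodes and 1 in a T cell class. The classes were ranked by UMIs pooled over the 4 tumours, with 668374 and 393876 UMIs in KO members and 43398 and 120649 in WT members. A gene low in KO members is therefore unlikely to rank highest in the members. The share of each class over all genes tested is not given. The sums of tumour genes given above were higher in WT members, and their part in the calls of these 95 genes was not tested. Igfbp4, at 37.6 and 37.3 CPM in KO members against 212 and 440.1 CPM in WT members (log2 fold change -3.23, adjusted p 8.91e-04), was the 1 lower gene of the naive and central memory list, and it was at 471 CPM in tumour-gene barcodes. Of the 43 Igfbp4 UMIs in WT tumour 2, 4 were left without the deep barcode, and the gene then did not pass (adjusted p 0.0844). Oaf, Angptl2, Dnm1, Ddah2, Cavin3, Serf1 and Rbp2, the other genes named for the size of their difference, were no longer tested without deep barcodes, as too few UMIs remained. Ltbp4, a TGF-beta binding protein gene, and Rin2, a Rab5 regulator gene, passed both ways, with 5 and 7 UMIs of Ltbp4 in KO members against 6 and 14 in WT members and 5 and 3 UMIs of Rin2 in KO members against 6 and 5 in WT members. With a tumour left out, Ltbp4 had log2 fold changes of -4.03 to -2.76 over 4 fits. Rin2 had enough UMIs to be tested in only 1 of those fits, at -3.33.

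By groups, few genes of each list passed, whereas most T cell lists had a positive median. Over all genes tested, 2.07% rose and 2.16% fell. Of 19 tested effector and cytotoxic genes, Klrc1 and Klrk1 rose and 0 fell, with a median log2 fold change of 0.86, beside 0.04 over all genes tested. Of 9 activation genes, Il2ra, Tnfrsf9 and Icos rose (median 1.21), and of 6 inhibitory receptor and exhaustion genes, Pdcd1 and Nr4a2 rose (median 0.70). Pdcd1 rested on 68 and 41 UMIs in KO members against 2 and 0 UMIs in WT members. Il21r was the 1 of 6 stem-like genes, Cxcr6 the 1 of 6 residency genes and Nfkb1 the 1 of 10 NF-kappaB genes that rose. There were 0 calls by edgeR among 8 Gimap genes (median 0.87), 13 T cell receptor signalling genes (0.85), 10 egress genes (0.80), 15 interferon genes (0.25) and 12 glycolysis genes (-0.32). Bid of the BCL2 family and Ier2 of the immediate early genes fell. Without deep barcodes Klrc1 and Satb1 were the list genes that passed, and the medians were 0.66 for effector, 0.94 for activation, 0.50 for Gimap and 0.52 for receptor signalling genes, beside 0.02 over all genes tested.

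The interaction test, which asks whether the KO to WT difference of the members differs from that of the other non-cycling CD8 T cells, called 5 of 6522 genes (0.0767%). Klrc1 was the 1 gene (0.0153%) with a positive interaction, and Ccl8, Selenop, C1qa and Igfbp4 (0.0613%) had negative ones. In those other CD8 T cells 45 of 9916 genes (0.454%) were called between KO and WT tumours, with more cells in each sum.

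**Figure D4:**
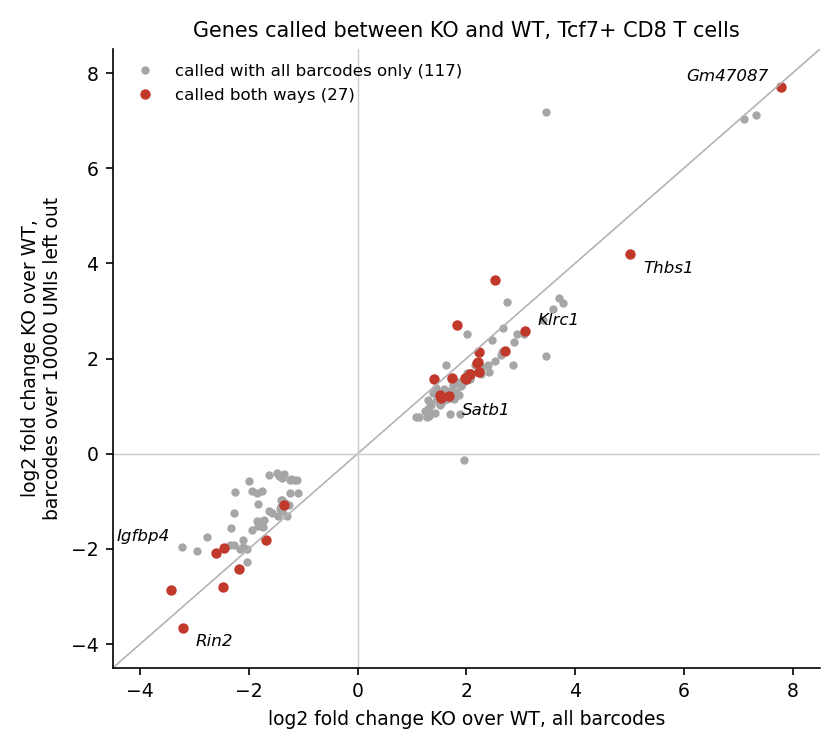
Log2 fold change of KO over WT tumours in Tcf7+ CD8 T cells for genes called with all barcodes, against the value without barcodes over 10000 UMIs; grey points were called with all barcodes only and red points both ways. The 27 red points include Klrc1, Satb1, Thbs1 and Rin2, and values over 7 belong to genes with 0 UMIs in WT members in at least 1 of the sums, so their position is no measure of size.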

How the data were processed

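The deposited matrices hold whole-number UMI counts per gene and barcode, not normalized, from 4 libraries of the 10x Genomics method. Per the labels' protocols the aligner was Cell Ranger 5.0.1 on mm10, but the matrices' own headers give version 6.1.2. Seurat 5.1.0 is listed in the submitters' processing notes. All 55450 features matched GENCODE vM21 (GRCm38) by identifier, which gave the gene positions. Counts of features that share a symbol were summed. Barcodes were gated with scanpy 1.11.5 in Python 3.11.15, with no clustering and no doublet removal in the values given first. Scrublet's highest scores, 0.8% per 1000 barcodes, were removed as an alternative.

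UMI counts were summed per tumour over members and over other non-cycling CD8 T cells, and tested with edgeR 4.0.16 (TMM, filterByExpr, glmQLFit, glmQLFTest) in R 4.3.3. The comparison of classes had the tumour as a block. P-values are two-sided and Benjamini-Hochberg adjusted over all genes tested, with 0.05 as threshold. CPM of single genes in tests are scaled by TMM within the comparison, so that a gene can have slightly different values in different comparisons. CPM of lists, pooled classes and of Hnrnpa2b1 are plain. Cell numbers were tested with the same tool without TMM. Counts, not lengths, were compared, so levels are not compared between genes. DESeq2 1.42.0 was an alternative.

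On simulated counts with 200 changed genes of at least 100 CPM, the KO to WT comparison recovered 26% of 2-fold and 97% of 4-fold changes, the comparison of classes 94% and 100%, and the interaction 8% and 77%. With 17 and 24 cells in the WT tumours, 2-fold differences between KO and WT are mostly below what these sums can show. Nothing in the labels says whether the tumours of a group were grown in separate experiments. P-values of the KO to WT gene tests and of the share tests therefore measure the spread between these tumours. The comparison of classes and the interaction had the tumour as a block. Their p-values measure how the difference of classes within a tumour varies over these tumours.

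Members and gene lists were chosen with earlier results of these data known. Genes named by size were, between KO and WT, the 10 with the largest positive and the 10 with the largest negative fold changes among called genes with at least 50 CPM in the higher group and no overlap, and between classes the 15 on each side with the same direction in all 4 tumours. Rule genes were left out of all counts. The counts of calls include a gene that is not reported here.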

Additional observations from a re-analysis of the deposited data

Results flagged for a closer look

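For 5 genes the difference between KO and WT tumours in Tcf7+ CD8 T cells differed from that in the other non-cycling CD8 T cells of the same tumours, by the interaction test of edgeR's quasi-likelihood fit. Klrc1 had an interaction of 2.81 on the log2 scale, with 319 and 363 CPM in KO members and 21.2 and 47.0 CPM in WT members, against 337 and 346 CPM in other CD8 T cells of KO tumours and 197 and 309 CPM in those of WT tumours. The WT members stand apart from the other 3 kinds of sum. It lost the call without KO tumour 1, without KO tumour 2, with high doublet scores removed and with DESeq2.

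Ccl8 had an interaction of -2.77, Selenop one of -3.44 and C1qa one of -2.62. All 3 were most abundant in C1q or Lyz2 barcodes, at 1062, 291 and 1648 CPM. Ccl8 was at 133 and 218 CPM in KO members and 127 and 423 CPM in WT members, against 284 and 361 CPM in other CD8 T cells of KO tumours and 70.8 and 92.8 CPM in those of WT tumours. Selenop was at 99.1 and 53.7 CPM in KO members and 42.3 and 207 CPM in WT members, and C1qa at 140 and 215 CPM in KO members and 84.7 and 282 CPM in WT members. The 10 macrophage and monocyte genes summed, without barcodes over 10000 UMIs, to 1483 and 2363 CPM in KO members and 438 and 5758 CPM in WT members. In WT tumour 2, 1 barcode of 6047 UMIs held 346 of those 369 UMIs, and without it the sum there was 396 CPM. The part of that barcode in these results was not tested. Without WT tumour 2 these 3 genes did not pass, with adjusted p-values of 0.593, 0.625 and 0.628.

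Igfbp4 had an interaction of -2.35. It was most abundant in tumour-gene barcodes (471 CPM), and without barcodes over 10000 UMIs the interaction was -0.72 with an adjusted p of 0.899.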

How the results depend on the processing

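The share of kept barcodes kept its direction in every alternative. It lost the call with the tumour number as a replicate block (log2 ratio 2.96, adjusted p 0.223) and when any 1 tumour was left out (log2 ratios 2.64 to 3.31). The share of the CD8 gate passed in no alternative, and its sign changed with at least 2 Tcf7 UMIs (0.54) and without WT tumour 2 (0.12), over a range of -0.23 to 0.12 when tumours were left out. Genes called between KO and WT tumours numbered 186, against 1 with high doublet scores removed, 30 with DESeq2, 332 without a filter on low counts, 424 without cells of over 1% UMIs from other cell types, 33 without barcodes over 10000 UMIs (an alternative chosen after seeing the data) and 55 to 583 when tumours were left out. The replicate block gave 228. Genes called between classes numbered 156, against 410, 87, 287, 244 and 361 under the same settings, 65 against cells with none of Tcf7, Ccl3 and Gzmk, 11 without the tumour block and 25 to 419 when tumours were left out. The interaction called 5 genes, against 1 with DESeq2 (Ccl8), 18 without a filter, 8 without barcodes over 10000 UMIs, 7 with high doublet scores removed and 1 to 229 when tumours were left out. Causes were not tested. Deviations of same-numbered tumours had a correlation of -0.06 over 1771 genes, and the labels do not say that a number pairs tumours. Gene tests with at least 2 Tcf7 UMIs were not run, since WT tumours then held 6 and 5 members. Of 1013 values of named genes under an alternative, 696 kept direction and side of the threshold, 306 kept direction and lost the call, 11 gained it and 0 changed direction.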
